A study of Mus musculus with 14 samples.

Results

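The genes described here were 10 regulators of cell cycle entry and arrest in wounded mouse fibroblasts: the cyclin-dependent kinase inhibitors Cdkn1a, Cdkn1b, Cdkn1c, Cdkn2a and Cdkn2b, the p53 gene Trp53 with Mdm2 and Gdf15, the G1 cyclin Ccnd1, and Myc. They were taken by gene symbol from 43472 listed genes. The choice of genes was made with earlier results of these data known. All 10 were listed in both deposited tables and all 10 passed the filter on low values. Primary fibroblasts, which are connective tissue cells in their first culture, came from the tail tips of C57BL/6 mice, whose age was not given in the labels. A monolayer was wounded with a scratch and was either left alone (Untreated) or given autologous micrograft (AMG-treated), the filtered soluble part of mouse skin biopsies that had been broken up in saline, used at 1:10 in culture medium. Untreated and AMG-treated cells shared the strain, the culture medium and the scratch, and the labels name no genetic change in either. Of the 14 RNA sequencing libraries, replicates 2, 3 and 4 of each group were collected at 5 h, and replicate 1 of each group at 1, 5, 12 and 24 h. The labels call the replicates biological but do not say whether they came from separate mice, so the p-values measure only the spread between these libraries.

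Progress through G1 depends on cyclin D with Cdk4 or Cdk6 and on cyclin E with Cdk2, which inactivate Rb and release E2F. The Cip/Kip inhibitors (p21, p27 and p57, encoded by Cdkn1a, Cdkn1b and Cdkn1c) bind cyclin-kinase complexes, and the INK4 inhibitors bind Cdk4 and Cdk6. The transcription factor p53 induces Cdkn1a and its own ubiquitin ligase Mdm2, whereas Myc promotes growth and ribosome production and responds early to serum and growth factors.

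Between 12545537 and 34696529 reads were assigned to genes per library. Ribosomal protein genes, 79 in number, took 6.33% of the reads of Untreated 5h replicate 1 and 4.62% of those of AMG-treated 1h replicate 1, against 2.02 to 3.09% in the other libraries, so that these 2 libraries stood apart. Both enter ratios of replicate 1 below. Results at 5 h are given first for replicates 2 to 4, which were normalised together and give each group replicates, and with replicate 1 afterwards. Summed fibroblast markers (10 genes) reached 12813 to 34307 CPM (reads scaled to the library total), and Col1a1, Col3a1 and the other 8 were detected throughout. At 5 h in replicates 2 to 4 this sum was 27472 to 34307 in Untreated and 19368 to 23710 in AMG-treated libraries, and 7 of the 10 markers were lower and 0 higher with AMG when same-numbered libraries were paired in limma, where 19.3% of all genes were lower and 17.9% higher. In the same fit 1 keratinocyte marker was higher and 2 were lower, 1 muscle marker was lower, 1 adipocyte marker was higher and 0 leukocyte markers differed. Keratinocyte markers summed to 10.7 to 49.0 CPM, with Krt5, Krt14 and Krt1 at 3 reads or fewer in every library. Leukocyte markers summed to 9.33 to 82.1, with Cd3e at 3 reads or fewer, skeletal muscle markers to 16.3 to 418, adipocyte markers to 13.8 to 111 and endothelial markers to 0.217 to 1.67. In replicate 1 the leukocyte sum was 63.1 to 82.1 in Untreated and 21.2 to 50.5 in AMG-treated libraries, without overlap. In bulk RNA, fewer cells of a type and less RNA per cell cannot be told apart. The part of these other cell types in the results was not tested.

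The promoters of 7 of the 10 genes were found in RefSeq (GRCm38.p6, the mm10 assembly), as 10 windows that run from 250 bases before to 50 bases after a transcription start. Both strands were searched for the E-box (CACGTG), the GC box (GGGCGG), the AP-1 site (TGANTCA), the TATA box (TATAAA), the CCAAT box (CCAAT), the cAMP response element (TGACGTCA), an NF-kB motif and the p53 motif, which is a pair of half-sites. A full p53 motif with at most 1 mismatch was present in 29 of 32851 windows, or 0.0883%, and among the 10 windows only in the one at the upstream start of Cdkn1a. It lies at chr17:29090928-29090947, 29 bases before the annotated start of the gene. A full motif with 1 mismatch always holds a matching half-site, and another half-site lies upstream of it in the same window. A GC box was in 35.7% of all windows and 6 of the 10, an E-box in 7.15% and 2 (Trp53 and Gdf15), and an NF-kB motif in 8.46% and 1. A p53 half-site was in 8.36% of all windows and in 3 of the 10 (Cdkn1a, Trp53 and Mdm2). The AP-1 site was in 7.81% of all windows and 0 of the 10, the TATA box in 13.6% and 1, the CCAAT box in 37.4% and 5, and the cAMP response element in 1.79% and 1. The Trp53 window held the NF-kB motif, which overlaps a CCAAT box, and an E-box just after its start. The 4 stretches that follow show the p53 motif of Cdkn1a, the start of the same gene without it, the 2 motifs of Trp53, and the start of the p19Arf transcript of Cdkn2a. Capitals mark the full p53 motif in the first, the NF-kB motif followed by the E-box in that of Trp53, and GC boxes in the other two.
Cdkn1a, upstream start, chr17:29090879-29090978, plus strand: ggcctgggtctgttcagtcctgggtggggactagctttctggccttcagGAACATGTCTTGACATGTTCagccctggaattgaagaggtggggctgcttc
Cdkn1a, downstream start, chr17:29093649-29093768, plus strand: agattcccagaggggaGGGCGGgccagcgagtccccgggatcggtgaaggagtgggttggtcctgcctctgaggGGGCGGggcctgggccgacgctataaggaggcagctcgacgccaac
Trp53, chr11:69580279-69580378, plus strand: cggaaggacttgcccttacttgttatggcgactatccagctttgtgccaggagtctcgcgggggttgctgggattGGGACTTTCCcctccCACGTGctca
Cdkn2a, upstream start, chr4:89294620-89294719, minus strand: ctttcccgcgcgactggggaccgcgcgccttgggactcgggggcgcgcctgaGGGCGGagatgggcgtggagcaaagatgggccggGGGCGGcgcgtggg
These motifs describe letters in a window and were not read as bound sites, since binding was not measured in these samples.

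The first question was which of the 10 transcripts differed between AMG-treated and Untreated cells at 5 h. Levels are normalised counts, which are reads divided by a size factor of the library, and differences are on the log2(normalised count + 1) scale. Myc rose with AMG, and it was the only gene of the 10 past an adjusted p of 0.05 in limma, beside 1.24% of the 13096 genes tested. Because libraries with the same replicate number deviated together, limma was also fitted with a term for the number, called the block here. With the block, 6 of the 10 passed, beside 37.2% of all genes. Myc, Trp53, Cdkn1a, Mdm2 and Cdkn2a were higher and Cdkn1b was lower, where all genes gave 17.9% higher and 19.3% lower. For 5 of the 10 the treated and untreated libraries did not overlap (Cdkn1a, Trp53, Mdm2 and Myc above, Cdkn1b below), beside 28.7% of all genes, of which 15.1% lay above and 13.6% below. The same 5 kept their direction in all 4 pairs of libraries at 5 h, replicate 1 included, beside 31.6% of all genes. For genes without overlap the direction in the pairs of replicates 2 to 4 is fixed, so only the pair of replicate 1 could differ. The number called with the block changed with the pairs used, for the 10 and for all genes. With every pair kept, 2345 of the 13096 genes were higher and 2527 lower. Without the pair of replicate 2 it was 4 of the 10, beside 724 higher and 695 lower of all genes. Without replicate 3 it was 8, beside 3269 and 3531, and without replicate 4 it was 6, beside 1346 and 1328. With a pair left out, few libraries remained beyond the terms of the blocked fit. The p-values of those fits rest largely on the spread that limma takes over from other genes.

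**Figure D1:**
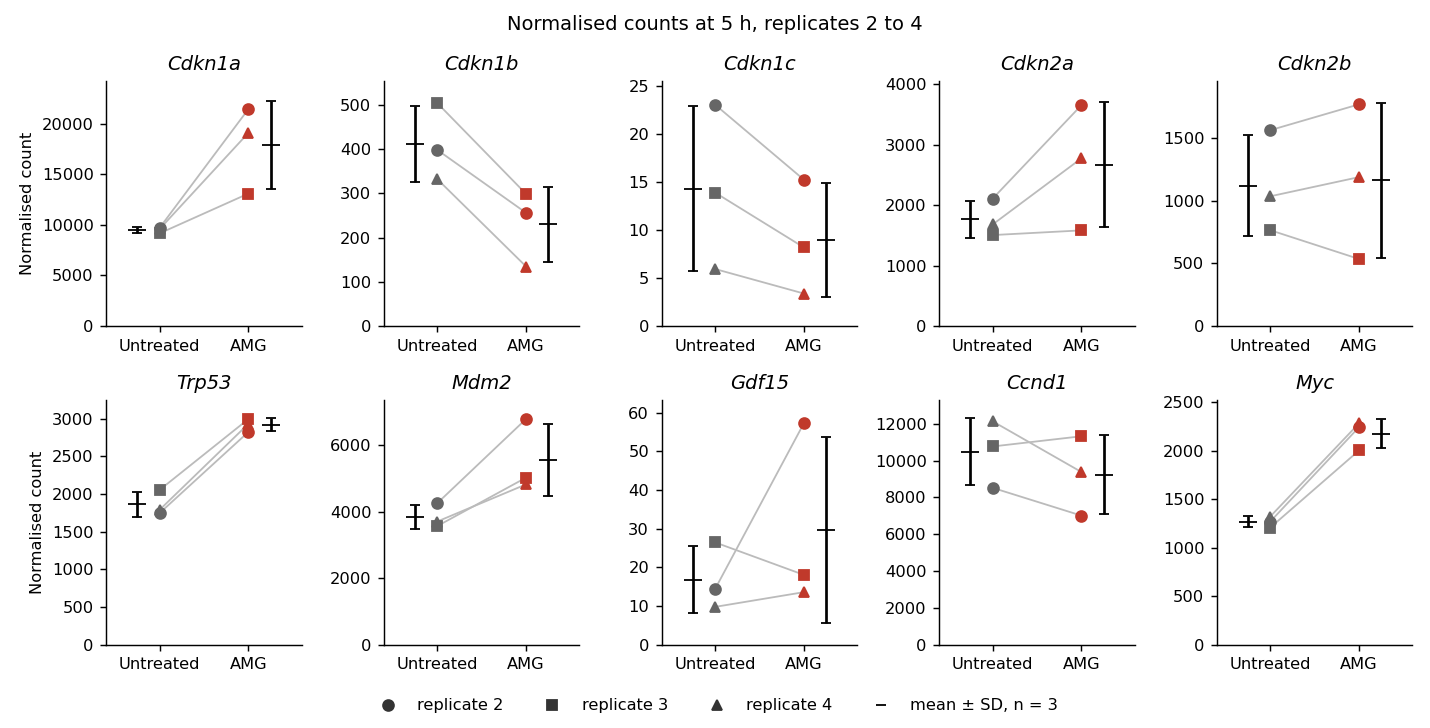
Normalised counts (vertical axes, from 0) of the 10 genes at 5 h in Untreated (grey) and AMG-treated (red) libraries, with lines joining libraries of the same replicate number and black bars for mean ± SD of 3. The treated values of Cdkn1a, Trp53, Mdm2 and Myc all lie above the untreated ones, those of Cdkn1b all lie below, and the other 5 genes overlap.

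Cdkn1a (chromosome 17, 29090976 to 29100727, mm10, plus strand) encodes p21, which arrests cells in response to p53 and to other signals. Its normalised counts were 9711, 9165 and 9594 in Untreated replicates 2, 3 and 4, and 21465, 13104 and 19116 in the AMG-treated libraries with the same numbers. The untreated libraries were close to each other, and the lowest treated library, replicate 3, was still above all of them. The mean went from 9489.9 ± 287 to 17895 ± 4312 (SD, n = 3 in each group), a ratio of 1.89. The log2 difference was 0.88 (SE 0.20), and the adjusted p in limma was 0.0837, or 0.00107 with the block. Without AMG-treated 5h replicate 3 the difference was 1.09 and passed without the block (adjusted p = 0.0106 in limma). The locus overlaps an unclassified transcript, AC167363.2, on the other strand, and the strand setting of the counting was not given in the sources used here.

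Cdkn1b (chromosome 6, 134920401 to 134925513, plus strand) encodes p27, an inhibitor that is high in resting cells and is controlled largely at the level of the protein. It was measured at 398, 504 and 332 in Untreated replicates 2, 3 and 4, and at 256, 298 and 134 with AMG. All 3 treated values lay below the untreated ones, and the lowest was AMG-treated replicate 4. The mean was 411 ± 86.7 without and 229.5 ± 85.1 with AMG (SD, n = 3). The log2 difference was -0.90 (SE 0.33), and the adjusted p in limma was 0.175, or 0.00332 with the block. Without AMG-treated replicate 4 the difference was -0.55 (adjusted p = 0.380 in limma without the block). In the pair of replicate 1 the log2 ratio was -1.60.

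Cdkn1c (chromosome 7, 143458339 to 143461050, minus strand), the imprinted gene of p57, was near the limit of detection. It had 23.1, 13.9 and 5.95 normalised counts in Untreated and 15.3, 8.20 and 3.39 in AMG-treated replicates 2, 3 and 4, from 3 to 21 reads per library. The groups overlapped, although each pair was lower with AMG. Its log2 difference of -0.64 (SE 0.74) was within the spread (limma adjusted p = 0.629, or 0.303 with the block), and the 95% interval with the block ran from -1.69 to 0.40. The pair of replicate 1 went the other way, with a log2 ratio of 1.43. An antisense transcript, Gm44732, overlaps this locus.

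Cdkn2a and Cdkn2b lie next to each other on the minus strand of chromosome 4 (89274471 to 89294653 and 89306299 to 89311039). The Cdkn2a count sums the transcripts of p16Ink4a, an inhibitor of Cdk4 and Cdk6, and of p19Arf, which restrains Mdm2, and these were not separated in the files. Cdkn2a stood at 2108, 1505 and 1681 in Untreated and at 3657, 1583 and 2776 in AMG-treated replicates 2, 3 and 4. Treated replicates 2 and 4 were above every untreated library, whereas treated replicate 3 lay among them, so the groups overlapped. The mean was 1764 ± 309.8 and 2672 ± 1041 (SD, n = 3), and the log2 difference was 0.53 (SE 0.31, adjusted p = 0.336 in limma, 0.0149 with the block). The blocked call ended without replicate 2 (adjusted p of 0.1501 in limma with the block), and the difference without AMG-treated 5h replicate 3 was 0.87 (adjusted p = 0.0336 in limma without the block), against 0.26 without AMG-treated 5h replicate 2 (adjusted p = 0.691).

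Cdkn2b encodes p15, the INK4 inhibitor known for its response to TGF-beta. Its values were 1565, 766 and 1037 in Untreated and 1772, 535 and 1190.5 in AMG-treated replicates 2, 3 and 4. The libraries were ordered by replicate number rather than by treatment, with replicate 2 highest and replicate 3 lowest in both groups. The log2 difference was -0.05 (SE 0.46, adjusted p = 0.964 in limma, 0.827 with the block), and the 95% interval with the block was -0.37 to 0.28.

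Both INK4 genes have short transcripts, 1172 exonic bases for Cdkn2a and 1390 for Cdkn2b, and the ratios of all genes varied with transcript length. Spearman's rho between length and ratio was -0.32, -0.21 and -0.39 in the pairs of replicates 2, 3 and 4 and 0.42 in the 5 h pair of replicate 1. With this trend removed and the block kept, Cdkn2a differed by 0.16 (adjusted p = 0.209 in limma) and Cdkn2b by -0.37 (adjusted p = 0.0229), so that the call moved from the one gene to the other. The calls of Cdkn1a, Cdkn1b, Trp53, Mdm2 and Myc held under this correction, which again gave 6 of 10, beside 34.3% of the 12458 genes with a length.

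Trp53 (chromosome 11, 69580359 to 69591873, plus strand) was measured at 1745, 2052 and 1788 normalised counts in Untreated and at 2823, 2995 and 2931 in AMG-treated replicates 2, 3 and 4. The lowest treated library was well above the highest untreated one. The mean went from 1862 ± 167 to 2916 ± 86.7 (SD, n = 3), a ratio of 1.57, and the log2 difference was 0.65 (SE 0.11). Without the block this just missed the threshold (limma adjusted p = 0.0532), and with it the value was 0.000960.

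Mdm2 (chromosome 10, 117688875 to 117710758, minus strand), the ubiquitin ligase that degrades p53 and is itself induced by it, had 4251, 3563 and 3699.7 normalised counts in Untreated and 6786, 5021 and 4818 in AMG-treated replicates 2, 3 and 4. The groups did not overlap, and replicate 2 was the highest in both. The mean went from 3838 ± 364 to 5542 ± 1082 (SD, n = 3). The log2 difference of 0.52 (SE 0.17) passed only with the block (limma adjusted p = 0.143, or 0.00321 with it), and without the pair of replicate 2 the blocked value was 0.0553.

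Gdf15 (chromosome 8, 70629393 to 70632456, minus strand) encodes a secreted stress cytokine that p53 and the integrated stress response can induce. It was barely expressed, at 14.3, 26.5 and 9.74 normalised counts in Untreated and 57.3, 18.0 and 13.6 in AMG-treated replicates 2, 3 and 4. Only treated replicate 2 stood above the untreated range. The log2 difference was 0.61 (SE 0.66, adjusted p = 0.604 in limma, 0.347 with the block), and it was -0.045 with the block when the pair of replicate 2 was left out and 1.18 (adjusted p = 0.0486 in limma) when that of replicate 3 was.

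Ccnd1 (chromosome 7, 144929931 to 144939925, minus strand) encodes cyclin D1, which couples growth factor signals to Cdk4 and Cdk6. Its values were 8518, 10766 and 12135 in Untreated and 7007, 11322 and 9376 in AMG-treated replicates 2, 3 and 4, and the groups overlapped. The log2 difference was -0.19 (SE 0.22, adjusted p = 0.624 in limma, 0.177 with the block), with a 95% interval of -0.43 to 0.04 with the block. Without the pair of replicate 3, the only one in which it was higher with AMG, the difference was -0.33 (adjusted p = 0.00235 in limma with the block). It was -0.15 (adjusted p = 0.521) without the pair of replicate 2 and -0.10 (adjusted p = 0.700) without that of replicate 4, and without the block it ran from -0.008 without AMG-treated replicate 2 to -0.35 without AMG-treated replicate 3. The gene overlaps LTO1 on the other strand.

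Myc (chromosome 15, 61985391 to 61990374, plus strand) had 1268, 1206 and 1320.3 normalised counts in Untreated and 2243, 2003 and 2283 in AMG-treated replicates 2, 3 and 4. The libraries within each group lay close together and the groups were far apart. The mean rose from 1265 ± 57.3 to 2176 ± 151 (SD, n = 3), a ratio of 1.72. The log2 difference was 0.78 (SE 0.11), and limma gave an adjusted p of 0.0375, or 0.000369 with the block. The call without the block ended when any library but AMG-treated replicate 3 was left out. Leaving out Untreated replicate 2, 3 or 4 gave adjusted p of 0.178, 0.0786 and 0.151 in limma, leaving out AMG-treated replicate 2 or 4 gave 0.177 and 0.181, and leaving out AMG-treated replicate 3 gave 0.0113. The difference itself stayed between 0.75 and 0.84 in these 6 fits.

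**Figure D2:**
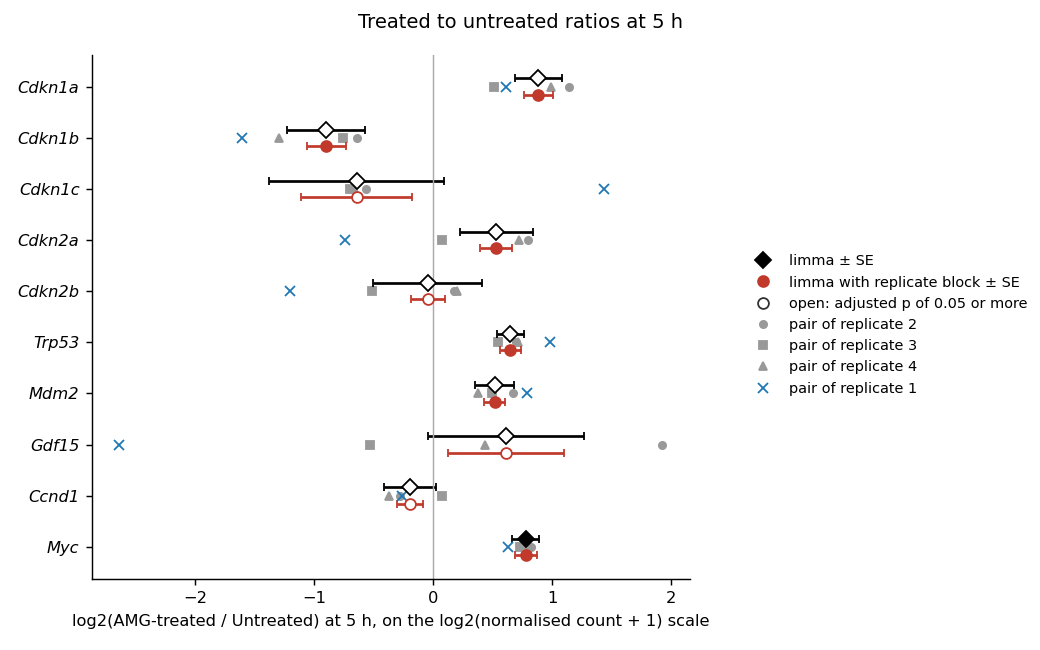
Log2 ratio of AMG-treated to Untreated at 5 h (horizontal axis) for the 10 genes, with the limma estimate ± SE without (black) and with (red) the replicate block and the ratio of each same-numbered pair. Filled symbols passed an adjusted p of 0.05: Myc alone without the block, and Myc, Mdm2, Trp53, Cdkn2a, Cdkn1b and Cdkn1a with it, while the pair of replicate 1 (crosses) opposes the other pairs for Cdkn1c and Cdkn2a.

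When replicate 1 was added, 4 pairs were compared on the recovered reads with edgeR and the replicate number as a block. Myc (log2 difference 0.75, adjusted p = 0.0318), Trp53 (0.74, adjusted p = 0.0438) and Cdkn1b (-1.07, adjusted p = 0.0470) passed, which is 3 of 10 beside 3.78% of all genes. Cdkn1a had 0.83 (adjusted p = 0.0550) and Mdm2 0.59 (adjusted p = 0.0802), both higher in 4 of 4 pairs. Cdkn2a was higher in 3 of 4 pairs and Cdkn2b in 2 of 4, and neither passed (adjusted p = 0.717 and 0.555). The untreated library of the added pair was the one with the highest ribosomal protein share.

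Levels between genes were compared as RPKM, which scales the reads to exonic length and library total. In the 3 Untreated libraries at 5 h Cdkn1a was highest, at 148 ± 4.13 (SD, n = 3), followed by Ccnd1 at 123 ± 19.6, Cdkn2a at 83.3 ± 14.6, Cdkn2b at 44.7 ± 16.1 and Mdm2 at 41.8 ± 4.16. Myc stood at 25.8 ± 0.311 and Trp53 at 25.5 ± 3.05, Cdkn1b at 5.03 ± 1.23, Gdf15 at 0.509 ± 0.277 and Cdkn1c at 0.392 ± 0.238. The ranges of Cdkn2b and Mdm2 overlapped, as did those of Myc and Trp53 and those of Gdf15 and Cdkn1c, so these neighbours were not ordered. Among the inhibitors, p21 RNA was therefore the most abundant and p57 RNA the least. With AMG, Cdkn1a was again highest at 268 ± 59.9, Cdkn2a reached 121 ± 46.3 and Ccnd1 105 ± 27.2.

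**Figure D3:**
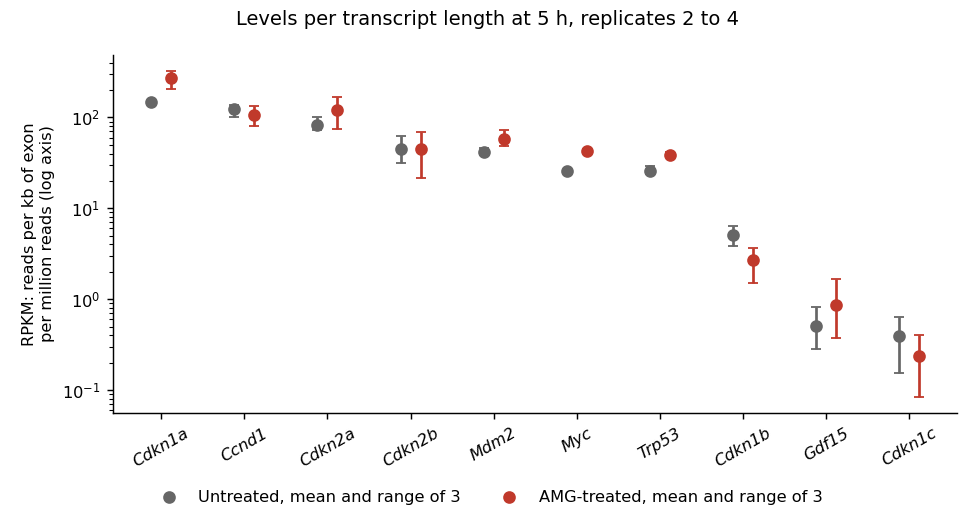
RPKM (reads scaled to exonic length and library total, log axis) for the 10 genes at 5 h, as mean and range of 3 Untreated (grey) and 3 AMG-treated (red) libraries. The levels run from Cdkn1a, at 148 in Untreated and 268 in AMG-treated cells, down to Gdf15 (0.509 and 0.859) and Cdkn1c (0.392 and 0.237), whose ranges overlap.

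The second question was how the 10 genes behaved over time, which only replicate 1 could show. It had 1 library per group and time, so no test was made, and the intervals given are exact 95% intervals of the read ratio, on the log2 scale, that cover counting error only. At 1 h all 10 genes were higher with AMG, where 47.0% of all genes were, but 8 of 10 with the length trend removed (Cdkn2a and Cdkn2b turned) and 8 of 10 with scaling by total reads (Trp53 and Ccnd1 turned). Total reads scaling moved the median log2 ratio of all genes at 1 h from -0.06 to -0.27. Past 2-fold in either direction were Myc and Gdf15 at 1 h (2 of 10, beside 22.0% of all genes), Cdkn1b, Cdkn1c, Cdkn2b and Gdf15 at 5 h (4 of 10, beside 25.9%), and 0 of 10 at 12 h (12.8%) and at 24 h (14.1%). Removing the length trend left Mdm2 (1.04) as the gene past 2-fold at 1 h, while Myc (0.88) and Gdf15 (0.92) were not, and at 5 h Trp53 (1.04) took the place of Cdkn2b (-0.46).

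Myc was 1857, 2214, 2021 and 1356 in Untreated and 4324, 3421, 2570.2 and 1449 in AMG-treated cells at 1, 5, 12 and 24 h. The treated level was highest at the first time and was lower at each later one, and the distance to the untreated level narrowed. The log2 ratio was 1.22 at 1 h (interval 1.13 to 1.30), 0.63 at 5 h, 0.35 at 12 h and 0.10 at 24 h (interval -0.003 to 0.19). With the length trend removed the ratios were 0.88, 0.96, 0.41 and -0.01, so that 1 h no longer stood above 5 h.

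Cdkn1a also lay apart early and close later. Its normalised counts were 18707, 20941, 16242 and 14627 in Untreated and 31414, 32007, 17517 and 15874 with AMG at 1, 5, 12 and 24 h. The log2 ratio was 0.75 at 1 h and 0.61 at 5 h, against 0.11 at 12 h and 0.12 at 24 h. From 5 to 12 h the treated level came down while the untreated level changed less.

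Trp53 had another course. It was at 2469.7, 1964, 2534 and 2309.6 in Untreated and at 2678, 3878, 3462 and 3816 in AMG-treated cells at 1, 5, 12 and 24 h. The libraries of 1 h were alike, with a log2 ratio of 0.12, and the treated ones were higher at 5 h (0.98), 12 h (0.45) and 24 h (0.72). Mdm2 was higher with AMG throughout, at 5030.0, 5465, 5041 and 5426 against 9781, 9422, 6851 and 7553. Its untreated level hardly moved, and its log2 ratio was 0.96, 0.79, 0.44 and 0.48 at the 4 times.

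Cdkn1a, Trp53, Mdm2 and Myc were higher with AMG at all 4 times, beside 7.22% of all genes, except for Trp53 at 1 h with scaling by total reads (log2 ratio -0.09) and Myc at 24 h with the length trend removed (-0.01).

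Cdkn1b was at 613, 1160.5, 609.6 and 647 in Untreated and at 871, 381, 442 and 462 with AMG at 1, 5, 12 and 24 h. It was higher with AMG at 1 h (log2 ratio 0.51, interval 0.34 to 0.67) and lower at 5 h (-1.60), 12 h (-0.46) and 24 h (-0.49). The untreated 5 h library stood above the other untreated ones, and the treated 1 h library above the other treated ones. These are the same 2 libraries in which the ribosomal protein share was highest, and its part in the difference was not tested.

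The INK4 genes were highest in Untreated 5h replicate 1. Cdkn2a had 5658, 13629, 5095 and 6149 normalised counts in Untreated and 10163, 8149, 4018 and 6405 in AMG-treated cells at 1, 5, 12 and 24 h. Its log2 ratios were 0.84, -0.74, -0.34 and 0.06, and with the length trend removed they were -0.12, 0.10, -0.21 and -0.19. Cdkn2b had 2172, 6263, 3289 and 3160.4 in Untreated and 3137, 2717, 2487 and 2681 with AMG. Its log2 ratios were 0.53, -1.20, -0.40 and -0.24 as scaled, and -0.31, -0.46, -0.28 and -0.46 with the length trend removed. The opposite signs at 1 h and 5 h went with libraries whose ratios depended on transcript length (Spearman's rho across genes -0.43 at 1 h and 0.42 at 5 h).

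Ccnd1 was higher at the later times in the untreated series, going from 7102 and 6456 at 1 and 5 h to 9755 and 11753 at 12 and 24 h. With AMG it was 7893, 5389.8, 7211 and 9590.3, so that the treated level was the lower one from 5 h on, with log2 ratios of -0.26, -0.44 and -0.29. At 1 h the ratio was 0.15, and -0.06 with scaling by total reads.

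Cdkn1c and Gdf15 were measured by few reads at each time. Cdkn1c was at 29.9, 13.1, 25.6 and 22.2 in Untreated and 55.6, 37.1, 17.2 and 18.9 with AMG, from 8 to 48 reads. Its log2 ratio at 5 h was 1.43, with an interval of 0.41 to 2.79. Gdf15 was at 7.03, 19.7, 28.5 and 29.1 in Untreated and 22.6, 2.32, 21.0 and 15.3 with AMG. The treated 5 h value came from 3 reads, and the log2 ratio there was -2.64 with an interval of -5.55 to -1.19. At 12 h the intervals of both genes included 0.

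**Figure D4:**
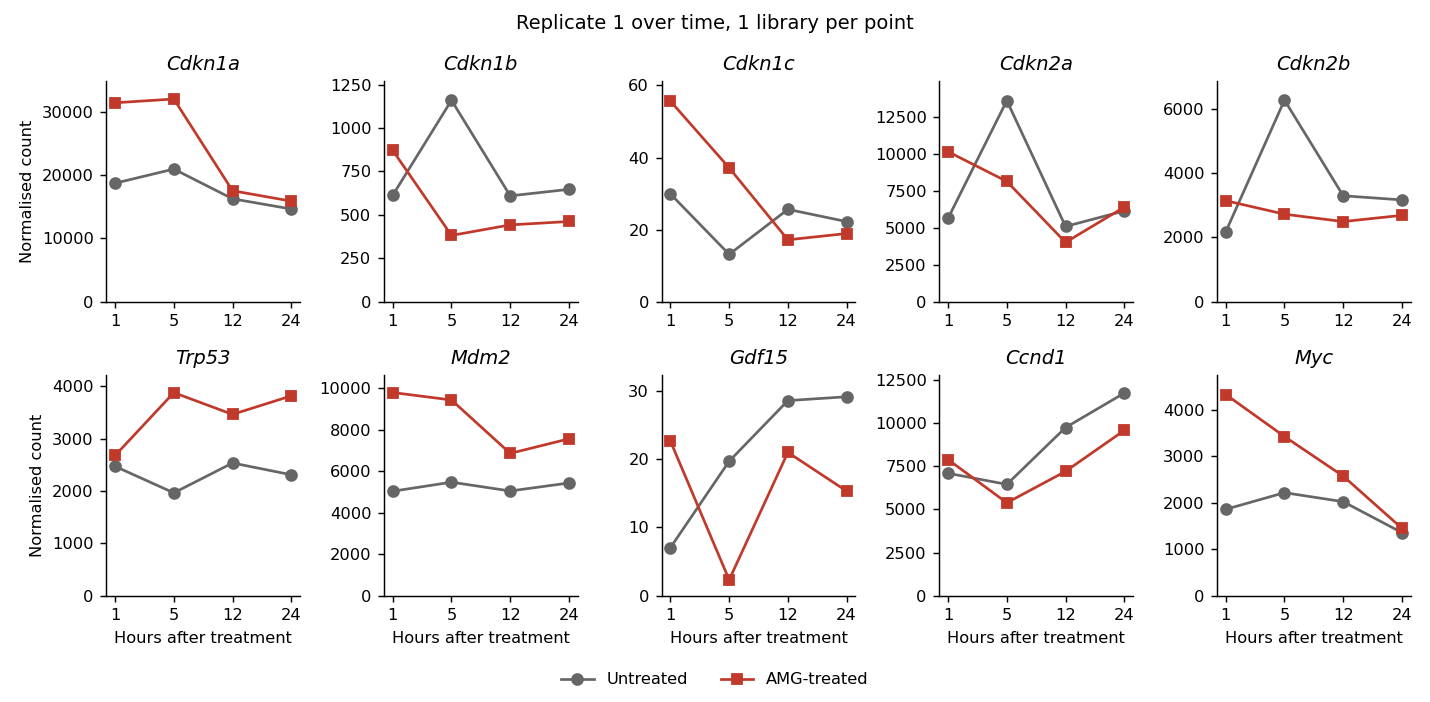
Normalised counts (vertical axes, from 0) of the 10 genes in replicate 1 at 1, 5, 12 and 24 h (categories, not to scale) for Untreated (grey circles) and AMG-treated (red squares) cells, with 1 library per point. Myc and Cdkn1a start apart (1857 against 4324 and 18707 against 31414 at 1 h) and lie close by 24 h, Mdm2 stays apart, and the untreated 5 h library stands out for Cdkn1b, Cdkn2a and Cdkn2b.

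The other genes of these pathways were read from the same fit at 5 h in replicates 2 to 4, as counts in each direction beside the background of 37.2% with the block. Of 20 textbook Myc targets, most of them in ribosome production, 16 were higher and 0 lower with the block, and 2 passed without it. These were Nop56, a protein of the box C/D small nucleolar ribonucleoproteins (1584 ± 66.1 to 2416 ± 37.1, n = 3, log2 difference 0.61, adjusted p = 0.0497 in limma), and Ppan, a ribosome biogenesis factor (666 ± 44.3 to 1295 ± 164, n = 3, log2 difference 0.95, adjusted p = 0.0402). Neither of these calls held in every setting. In edgeR with 4 pairs and the block, 1 of the 20 passed, beside 3.78% of all genes. The list had a median log2 difference of 0.54, against -0.02 for all genes tested, and 19 of the 20 were above 0. Rrs1, another ribosome biogenesis factor, had the largest difference (1.05, adjusted p = 0.0572 in limma, 0.00137 with the block), and Cad, an enzyme of pyrimidine synthesis, had the lowest (-0.35, adjusted p = 0.0569 with the block in limma). In the 5 h pair of replicate 1 the log2 ratio of Rrs1 was 0.58 and that of Cad was 1.27. In replicate 1, 15, 14, 19 and 20 of the 20 targets were higher with AMG at 1, 5, 12 and 24 h, beside 47.0, 49.8, 48.9 and 51.6% of all genes, and at 24 h the Myc log2 ratio was 0.10.

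Of 10 tested partners and antagonists of Myc, 2 were higher and 3 lower with the block. Max, the obligate partner, was higher (log2 difference 0.55, adjusted p = 0.121 in limma, 0.00300 with the block), and Mxd1, which competes with Myc for Max, was the lowest (-0.68, adjusted p = 0.157 in limma, 0.0149 with the block). In the 5 h pair of replicate 1 Max went the other way (log2 ratio -0.49), whereas Mxd1 was lower there too (-0.42).

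The other p53 targets differed in both directions. Of 27, 8 were higher and 7 lower with the block, and the median log2 difference was 0.03. Without the block none of the 27 passed in limma, 11 had an unadjusted p under 0.05 (23.1% of all genes did), and DESeq2 called 8 (10.9% of all genes). The median lay between -0.02 and 0.08 without single libraries. At the top was Gadd45a, a growth arrest and DNA damage gene, from 89.1 ± 25.5 to 562 ± 336 (n = 3), with a log2 difference of 2.43 (adjusted p = 0.0923 in limma, 0.000186 with the block). At the bottom was Sesn1, a sestrin, from 199 ± 31.5 to 103 ± 8.11 (n = 3), with a log2 difference of -0.94 (adjusted p = 0.0792 in limma, 0.00398 with the block). Of 11 regulators of p53, 2 were higher and 2 lower with the block. The damage kinase Atm had the lowest value (-1.004, adjusted p = 0.230 in limma, 0.00743 with the block) and Chek1 the highest (0.48, adjusted p = 0.382 in limma, 0.0990 with the block). Atm went the other way in the 5 h pair of replicate 1, with a log2 ratio of 1.24.

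Of 10 genes of the G1 cyclins, their kinases and regulators of these, 0 were higher and 3 lower with the block. All genes gave 17.9% and 19.3%, and the median of the 10 was -0.07. Ccne2, a cyclin E, had the lowest value (-1.21, adjusted p = 0.0940 in limma, 0.00616 with the block), and Cdc25a, the phosphatase that activates Cdk2, the highest (0.29, adjusted p = 0.370 in limma, 0.0869 with the block). Of 11 genes of the Rb and E2F family, 1 was higher and 4 lower with the block, and the median was -0.32, or -0.17 without AMG-treated replicate 2 and -0.57 without AMG-treated replicate 3. The pocket protein gene Rbl1 was lowest (-0.94, adjusted p = 0.178 in limma, 0.00665 with the block) and E2f4, which encodes the E2F factor that partners pocket proteins in resting cells, was highest (0.64, adjusted p = 0.105 in limma, 0.00209 with the block). The 2 other INK4 genes, Cdkn2c (-0.31, adjusted p = 0.712 in limma, 0.232 with the block) and Cdkn2d (-0.40, adjusted p = 0.275 in limma, 0.0584 with the block), passed in neither fit.

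Of 10 genes of the integrated stress response, a translational stress pathway, 6 were higher and 0 lower with the block, with a median of 0.69. Cebpb was highest (101 ± 15.3 to 564 ± 327, n = 3, log2 difference 2.27, adjusted p = 0.0740 in limma, 0.000984 with the block) and Psat1, an enzyme of serine synthesis, lowest (-0.15, adjusted p = 0.856 in limma, 0.284 with the block). Cebpb was lower with AMG in the 5 h pair of replicate 1, with a log2 ratio of -0.41. The median was 0.41 without AMG-treated replicate 2 and ranged to 0.91 without AMG-treated replicate 3. In replicate 1, 8, 4, 3 and 4 of the 10 were higher at 1, 5, 12 and 24 h, beside the same shares of all genes as for the Myc targets. Over all 8 lists 54 genes passed with the block, where all genes gave 2345 higher and 2527 lower. Without the pair of replicate 2 it was 26, beside 724 higher and 695 lower of all genes. Without replicate 3 it was 72, beside 3269 and 3531, and without replicate 4 it was 39, beside 1346 and 1328. Without the block the 7 lists other than the Myc targets had 0 genes past the adjusted threshold in limma, 27 of 81 had an unadjusted p under 0.05, and DESeq2 called 15, beside 23.1% and 10.9% of all genes.

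**Figure D5:**
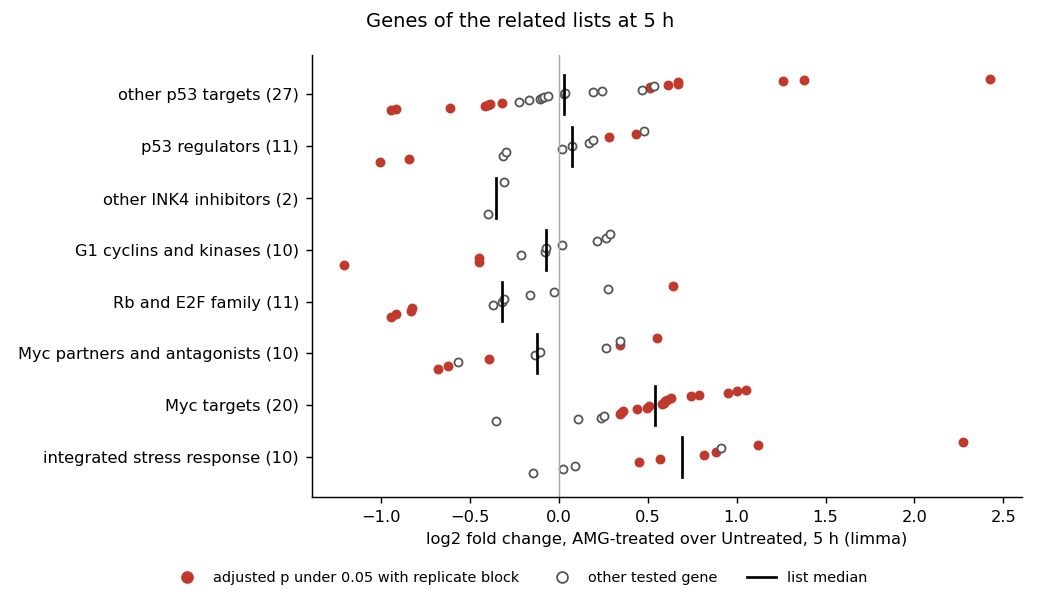
Log2 differences (horizontal axis, AMG-treated over Untreated, 5 h, replicates 2 to 4) of the tested genes of 8 related lists, with the number of genes in brackets, the list median as a black line and genes that passed with the replicate block in red. The Myc targets lie right of 0 with 16 of 20 in red, whereas the other p53 targets spread to both sides with 8 higher and 7 lower.

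The genes most like each of the 10 over the 14 libraries were sought among 12844 genes, after log2 values were centred within each table. The libraries share their treatment and their dependence on transcript length, so Pearson's r is a description only. Cdkn1a was closest to Rhog (r = 0.98), Cdk9 (0.97) and Nfkbib (0.97), and Myc to Sprr1a (0.94), Nfkbib (0.94) and Polr3d (0.93), so that Nfkbib was near both. Trp53 was closest to Rhbdf2 (0.95), Slc7a11 (0.95) and Tfe3 (0.94), and Cdkn1b to Idh1 (0.95), Cd24a (0.92) and Pdha1 (0.91). The nearest of Cdkn2a were 2310009B15Rik (0.98), Ndufs5 (0.97) and 1600002K03Rik (0.97), and those of Cdkn2b were Yipf3 (0.92), Rnf166 (0.91) and Klc3 (0.91). Mdm2 was nearest to Gm16098 (0.92), A630072M18Rik (0.92) and Bhlhe22 (0.92), and Ccnd1 to Bcs1l (0.90), Chtf18 (0.89) and Cnp (0.88). The few reads of Gdf15 and Cdkn1c were most like C920006O11Rik (0.94), Rad9b (0.87) and Pde6d (0.86), and Spock2 (0.83), Rgs5 (0.81) and Aplp1 (0.81).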

How the data were processed

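RNA was measured in 14 libraries. Per the labels and the study's methods, the authors prepared stranded poly(A) libraries, checked reads with FastQC 0.11.5, aligned them to mm10 with TopHat 2.0.13, kept unique alignments with SAMtools 0.1.19.24 and counted reads per gene with HTSeq 0.5.3p3. The annotation release and strand setting are not given in the sources used here, which leaves counts of overlapping or antisense genes uncertain. What the authors deposited is a normalised signal, counts divided by a DESeq size factor per library. This was done once over the 8 libraries of replicate 1 and once over the 6 of replicates 2 to 4, so levels were compared only within a table. Low values were multiples of one step, and 100% of values came out as whole reads within 0.1. Reads carry no molecular identifiers, so counting intervals cover counting error only. The depth was 12545537 to 34696529 reads.

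Genes with a mean of at least 10 at 5 h (13096) were fitted with limma 3.58.1 (R 4.3.3; lmFit, eBayes with a trend) on log2(value + 1), which understates changes of low genes. Adjusted p-values are Benjamini-Hochberg over all tested genes, with a threshold of 0.05. The count tests edgeR 4.0.16 and DESeq2 1.42.0 were run on the recovered reads as alternatives. The replicate block was checked first. Deviations from group means correlated at r = 0.65, 0.76 and 0.70 for same-numbered libraries and at -0.59 to 0.12 for others. Deviations within a group sum to 0, so the low values of the others partly follow from the high ones and add little. The block rests on the same-numbered values, and what a number shares is not given in the labels. The other settings were pseudocounts of 0.1 and 10, other filters, scaling by upper quartile or total reads, removal of the trend by transcript length, and leaving out each library. Scripts were tested on simulated data.

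Gene positions came from GENCODE (GRCm38, equal to mm10) and promoter windows from RefSeq. The members, gene lists and tests were chosen with earlier results of these data known. Named genes were all 10 members, in each related list the genes past the threshold and its highest and lowest log2 difference, and the 3 genes most like each member. The list symbols Dglucy, Cop1 and Adgre1 were not matched. Replicate 1 had no test, and its background is the 13498 genes that passed the same filter in its table.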

Additional observations from a re-analysis of the deposited data

Results flagged for a closer look

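At 5 h, in a group of 4 libraries, Untreated replicate 4 was far from the others in depth, with 34696529 reads against 12545537 to 16331090. Untreated replicate 1 was far from them in the share of reads in ribosomal protein genes, with 6.33% against 2.02 to 2.53%. Over the 4 pairs at 5 h the log2 ratio of Cdkn1c was 1.43 in replicate 1 and -0.70 to -0.57 in the others, where the untreated library of replicate 1 had 8 reads. In all, 20 groups of 4 values were searched, and chance marks about 1 in 20 of them.

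Cdkn1b was higher with AMG at 1 h in replicate 1, with a log2 ratio of 0.505, and lower in all 4 pairs at 5 h, where it ranged from -1.60 to -0.64. There was 1 pair of libraries at 1 h, and the difference between the times was not tested.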

How the results depend on the processing

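The blocked fit and the fits without single libraries moved the counts most. Genes called higher numbered 127, and 2345 with the replicate block, 56 without the trend, 854 with DESeq2, 2416 with edgeR and the block, 326 with 4 pairs, 2084 with the length correction and the block, and 1 to 1146 without single libraries. Genes called lower numbered 35, and in the same settings 2527 (block), 580 (DESeq2), 2436 (edgeR and block), 169 (4 pairs), 2195 (length correction) and 0 to 1054 (single libraries). With the block and without replicate 2, 3 or 4, an alternative chosen after seeing the data, there were 724, 3269 and 1346 higher and 695, 3531 and 1328 lower.

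Of the 10 genes 1 was called, and 6 with the block, 0 without the trend, 3 with DESeq2, 6 with edgeR and the block, 3 with 4 pairs, 6 with the length correction, 0 to 4 without single libraries, and 4, 8 and 6 with the block without replicate 2, 3 or 4. Of the related lists 2 genes were called, and 1 each with a pseudocount of 0.1, with all genes above 0, with upper quartile or total reads scaling and with edgeR, 0 without the trend, 54 with the block, 27 with DESeq2, 56 with edgeR and the block, 5 with 4 pairs, 51 with the length correction, 0 to 36 without single libraries, and 26, 72 and 39 with the block without one pair. Without the trend no gene of the 10 passed in limma, beside 56 higher and 24 lower of all 13096 genes. In that fit 5 of the 10 had an unadjusted p under 0.05, beside 2828 of all genes. The block changed the call of Cdkn1a, Cdkn1b, Cdkn2a, Trp53 and Mdm2 and of no other of the 10. Cdkn2b turned to 0.062 with edgeR and 0.060 with DESeq2, to 0.22 without Untreated 5h replicate 2, to 0.43 without AMG-treated 5h replicate 3 (range -0.43 to 0.43 without single libraries), and to 0.19 with the block without replicate 3. Gdf15 turned to -0.045 with the block without replicate 2. Past 2-fold in replicate 1 at 1 h were 2 genes, and 1 with a pseudocount of 10 (Myc) and 1 with the length correction (Mdm2), at 5 h 4, and 5 with total reads scaling, where Trp53 (1.08) joined, and at 24 h 0, and 1 with the length correction (Gdf15). The cause of these shifts was not tested.

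The other directions of the 10 genes at 5 h held in every setting that gave a value. DESeq2 gave no adjusted p for Cdkn1c, and the filter at a mean of 50 dropped Cdkn1c and Gdf15. Cdkn1c and Gdf15 are limited by depth, with 3 to 48 reads a library.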
